A study of Mus musculus with 35 samples.

Results

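Gastrocnemius muscle of 24-month-old PGC-1α transgenic mice was compared with gastrocnemius muscle of 3-month-old wild-type mice, to ask which genes of old transgenic muscle lay at the young wild-type level and which did not. The comparison takes 12 of the 35 RNA sequencing libraries of the series: 6 from the old transgenic group, chosen by the column prefix MCK_SO_, and 6 from the young wild-type group, with the prefix WT_. All animals were male, the tissue was the whole muscle, and the design text calls the samples biological replicates, so the p-values below measure the spread between animals.

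The series crossed 3 genotypes (wild type, PGC-1α transgenic and PGC-1α knockout) with ages of 3 and 24 months. The young wild-type mice carried no transgene, and no treatment is given for any group. The old transgenic mice differed from them in both genotype and age, so an effect of either cannot be told apart in this comparison alone. Wild-type mice of 24 months (6 libraries) and transgenic mice of 3 months (6 libraries) were therefore read beside it. The labels name neither the promoter nor the cell type that drives the transgene, and the prefix MCK is the usual abbreviation of muscle creatine kinase. The column names state no age, and their groups were inferred from their prefixes and from the number of columns under each.

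PGC-1α, the product of Ppargc1a, is a transcriptional coactivator: it binds no DNA itself and works through factors such as the oestrogen-related receptors and the nuclear respiratory factors. In skeletal muscle it is known for raising the genes of mitochondrial respiration and fatty acid oxidation, and for a role in the adaptation to endurance exercise. The respiratory chain is built from proteins of 2 genomes, since mitochondrial DNA (mtDNA) encodes a few core subunits and nuclear genes encode the rest together with the machinery that translates the mitochondrial messages.

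The values are TPM, transcript abundances as shares of a fixed total per library, so a rise in a few very abundant transcripts lowers all others. The 13 protein genes of mtDNA took 26.6% ± 1.45 (SD, n = 6) of the total in young wild-type muscle and 39.6% ± 5.50 (SD, n = 6) in old transgenic muscle. The groups did not overlap, with 24.4 to 28.4% against 31.7 to 46.7% (exact 2-sided permutation test, p = 0.002165, the smallest that 6 against 6 libraries can give, adjusted p = 0.003247 over 3 single values). The median gene was therefore used as the reference. Each library was divided by a size factor, the median ratio of its genes to the other libraries, which was 1.18 to 1.29 in young wild-type and 0.641 to 0.755 in old transgenic libraries. Values after this step are called scaled TPM, and differences are on the log2(scaled TPM + 1) scale, which understates the change of low genes. On unscaled TPM the median gene lay 0.59 lower in the old transgenic group, so every change below is relative to the median gene. Many statements that turn on this choice are marked, but not all of them. A rise given without an unscaled value may not pass on unscaled TPM.

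One old transgenic library stood apart. MCK_SO_17 had a median correlation of 0.961 with the rest of its group over the tested genes, against 0.977 to 0.98 for the others, and the lowest share of mtDNA genes at 31.7%. Counts without it are given where they move. Nuclear rRNA genes took 0.259% ± 0.124 (SD, n = 6) of TPM in young wild-type and 0.748% ± 0.359 (SD, n = 6) in old transgenic libraries, and 5.34 to 12.6% in old wild-type libraries. The log2 difference between old transgenic and young wild-type muscle was 1.51 (exact 2-sided permutation test, adjusted p = 0.008658). All 17 markers that define muscle fibres were measured, with a summed level of 140000 to 158500 scaled TPM in young wild-type and 106300 to 202900 in old transgenic libraries. The depth of the libraries is unknown, because TPM does not hold it.

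The transgene's own gene was high in every old transgenic library. Ppargc1a (GRCm38, chr5:51454250-51567726, minus strand) was at 4.83 to 15.2 scaled TPM in young wild-type muscle, with a median of 7.0, and at 64.0 to 107, with a median of 92.0, in old transgenic muscle. The groups were far apart, and the log2 difference was 3.41 (exact 2-sided permutation test, adjusted p = 0.003247). Old wild-type muscle lay at 3.79 to 4.70 scaled TPM, below all 6 young wild-type libraries. The table sums all transcripts of the gene and does not separate the transgene from the endogenous copies.

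Of 12399 genes tested with limma, 2977 (24.0%) were higher and 2895 (23.3%) were lower in old transgenic than in young wild-type muscle at a Benjamini-Hochberg adjusted p under 0.05. In all, 47.4% of the tested genes differed, which is the background for every count below. The libraries of the 2 groups did not overlap for 3249 genes (26.2%), the background for each statement of no overlap. Most of these differences were small. Only 487 genes (3.93%) rose and 186 (1.5%) fell by at least 2-fold. On unscaled TPM the split was 497 genes higher (4.01%) and 9599 lower (77.4%), the background for counts on unscaled TPM.

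Likeness was tested as well as difference. A gene was called within 1.5-fold when 2 one-sided tests placed the difference inside that margin, for genes with a mean of at least 5 scaled TPM in either group. Of 6483 such genes, 3822 (59.0%) lay within 1.5-fold of the young wild-type level and 1494 (23%) were called with a change of at least 1.5-fold. In all 3728 (57.5%) were called, 1379 (21.3%) were both called and within the margin, and 312 (4.81%) were neither. The distribution of differences had its bulk inside the margin and more genes beyond 2-fold on the side of the rises.

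**Figure D1:**
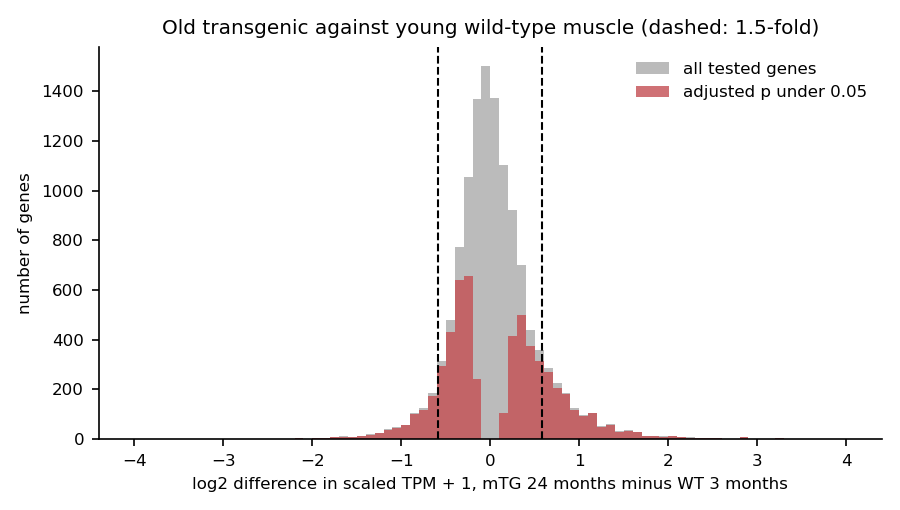
Histogram of the log2 difference in scaled TPM + 1 between old transgenic and young wild-type muscle (x axis, log2 units) over the 12399 tested genes (y axis, number of genes); grey bars are all genes, red bars those with an adjusted p under 0.05, and dashed lines mark 1.5-fold. Most called genes lie between the dashed lines, and 487 genes rose against 186 that fell by at least 2-fold.

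The genes of the respiratory chain stood above the young wild-type level nearly without exception. All 13 protein genes of mtDNA rose, with a median log2 difference of 1.12, beside a median of 0.00 over all tested genes. All 36 tested nuclear genes of complex I, the NADH dehydrogenase, rose (median 1.17), as did 4 of 4 of complex II (median 1.13), 9 of 9 of complex III (median 1.19) and 15 of 15 of complex IV (median 1.22). Of 16 genes of the ATP synthase, 15 rose (median 1.34). On unscaled TPM fewer passed, with 6 of 13 mtDNA genes, 23 of 36 of complex I and 14 of 16 of the ATP synthase still higher. In complex II Sdhb (0.865) and Sdhd (0.434) stayed higher on unscaled TPM, Sdha (0.17) did not pass and Sdhc was lower (-0.415). Uqcr10 and Uqcrb of complex III did not pass there, nor did Cox6a2, Cox6b1, Cox7a2, Cox7a2l and Cox8a of complex IV.

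Some promoters of these genes are shown because the factors that PGC-1α works through have known binding sequences. In the 250 bases before the start of 65 of the 79 nuclear respiratory chain genes (70 windows, RefSeq, GRCm38.p6), the oestrogen-related receptor element TNAAGGTCA was found on either strand in 2.86% of windows and the palindromic element of nuclear respiratory factor 1, whose letters are the capitals of the last 4 excerpts, in 5.71%, against 0.671% and 1.67% of 11468 windows of all tested genes. The counts behind the shares of the respiratory chain genes are 2 and 4 windows, and neither element contains the other. In 388 windows of genes called at least 2-fold higher the shares were 0.773% and 1.8%. Neither element was found in 27 windows of tricarboxylic acid cycle genes. Fatty acid oxidation and mitochondrial ribosome genes had no window with the first element, and 4.76% of 21 and 4.05% of 74 windows with the second. Excerpts of all 6 respiratory chain windows follow in the direction of the gene, with the matched element in capitals.
Atp5g3 (chr2:73911345-73911403, minus strand): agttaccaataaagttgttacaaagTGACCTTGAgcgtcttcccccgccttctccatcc
Ndufb4 (chr16:37654392-37654450, minus strand): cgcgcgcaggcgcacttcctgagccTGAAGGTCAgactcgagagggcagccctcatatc
Ndufa11 (chr17:56717677-56717736, plus strand): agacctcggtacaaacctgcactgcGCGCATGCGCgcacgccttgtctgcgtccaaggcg
Cox6a1 (chr5:115349086-115349145, minus strand): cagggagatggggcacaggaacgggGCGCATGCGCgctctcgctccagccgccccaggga
Atp5k (chr5:108434415-108434474, minus strand): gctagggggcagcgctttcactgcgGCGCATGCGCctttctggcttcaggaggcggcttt
Atp5g2 (chr15:102671055-102671114, minus strand): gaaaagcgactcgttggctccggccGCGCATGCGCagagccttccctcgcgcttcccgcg

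The first 2 hold the oestrogen-related receptor element, which lies on the opposite strand in Atp5g3, and the other 4 hold the nuclear respiratory factor 1 element. Atp5g3, a subunit of the ATP synthase ring, was at 609 to 833 scaled TPM in young wild-type and 1905 to 2957 in old transgenic libraries, a log2 difference of 1.55 ± 0.11 (SE, limma, adjusted p = 1.35e-13). Ndufb4 of complex I rose by 0.90, Ndufa11 of complex I by 1.43, Cox6a1 of complex IV by 1.19 and Atp5k of the ATP synthase by 1.30. Atp5g2, which carries the same element as the last 3, was the one ATP synthase gene that did not pass. Its libraries ranged from 35.3 to 73.1 scaled TPM in young wild-type and from 23.5 to 233 in old transgenic muscle, with a log2 difference of 0.05 ± 0.58 (SE, adjusted p = 0.956). A match in these windows is a match of letters only.

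Among the mtDNA genes, mt-Atp6, a subunit of the ATP synthase, had 8594 to 10580 scaled TPM in young wild-type libraries (median 9403) and 32830 to 68020 in old transgenic libraries (median 48670), a log2 difference of 2.31 ± 0.15 (SE, limma, adjusted p = 5.65e-14). The cytochrome oxidase subunit mt-Co3 rose by 1.54 and mt-Cytb of complex III by 1.41. mt-Nd1, a core subunit of complex I, went from a median of 18840 to one of 41890 scaled TPM, a log2 difference of 1.12 ± 0.12 (SE). None of these 4 genes overlapped between the groups, beside 26.2% of all tested genes without overlap. After quantile normalization mt-Co3, mt-Cytb and mt-Nd1 no longer passed, with differences of 0.11, 0.08 and 0.02.

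The nuclear subunits moved by similar amounts. Atp5b, the catalytic subunit of the ATP synthase, was at 1334 to 2038 scaled TPM (median 1649) in young wild-type and at 4718 to 8585 (median 5345) in old transgenic muscle, with no overlap and a log2 difference of 1.79 ± 0.14 (SE, limma, adjusted p = 4.14e-12). In old wild-type muscle it was at 1545 to 1763, inside the young range. Sdhb, the iron-sulphur subunit of complex II, had 222 to 296 against 739 to 1190 scaled TPM and a log2 difference of 1.70 ± 0.10 (SE). Ndufs8 of complex I rose by 1.56, Uqcrfs1 of complex III by 1.23, Cox6c of complex IV by 1.65 and Cox7c by 1.31. MCK_SO_17 was the highest old transgenic library for Atp5b, Ndufs8, Cox6c and Atp5l, and without it the median difference of the complex I genes was 1.03 and that of the ATP synthase genes 1.2, with the same 36 and 15 counts of genes higher.

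Young transgenic muscle was high for these genes too. Against the same young wild-type libraries, which both comparisons share, 3-month-old transgenic muscle had 35 of 36 complex I genes and 13 of 13 mtDNA genes higher, with medians of 0.98 and 1.40, beside 22.3% of all genes higher and 21.4% lower. From young to old transgenic muscle the medians were 0.14 and -0.23. Old wild-type muscle had 12 of the 36 complex I genes higher than young wild-type muscle (median 0.25), beside 11.4% of all genes higher and 11.3% lower, and the other 24 did not pass. Transcript length moved with the differences as well. Over 10876 protein-coding genes the Spearman correlation of the difference with the longest transcript was -0.306 for old transgenic, -0.249 for old wild-type and -0.097 for young transgenic against young wild-type muscle, a description across genes that are not independent, and its part in the rise of the respiratory chain genes and in the classes of age-changed genes below was not tested.

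**Figure D2:**
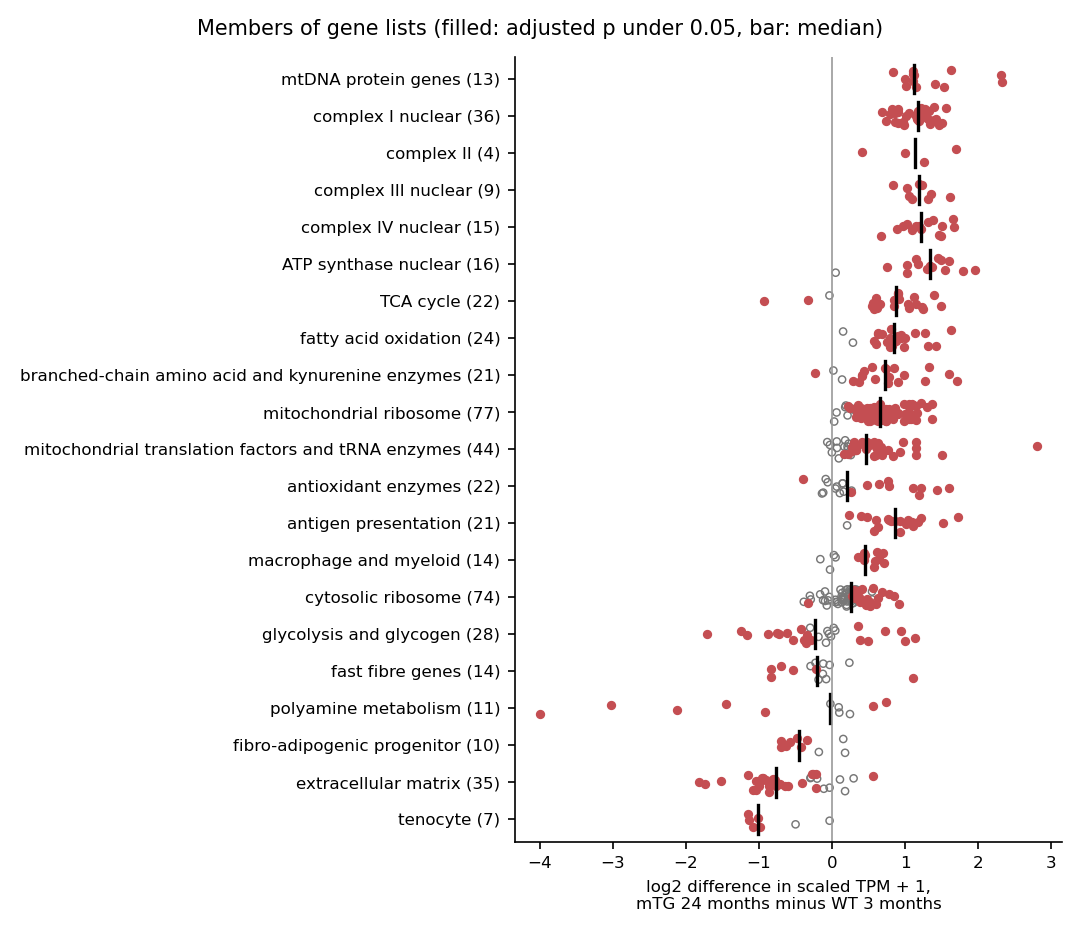
Log2 differences in scaled TPM + 1 between old transgenic and young wild-type muscle (x axis) for the members of 21 gene lists (y axis, number of tested genes in brackets); each point is a gene, filled where its adjusted p was under 0.05, and black bars are medians. All points of the respiratory chain lists lie to the right of 0, with Atp5g2 the one open point, and the extracellular matrix and tenocyte lists lie mostly to the left.

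Enzymes that feed the chain rose too. Of 22 genes of the tricarboxylic acid cycle and its entry, 19 were higher and 2 lower (median 0.88). Dlst, the core of the 2-oxoglutarate dehydrogenase complex, went from 63.4 to 80.1 scaled TPM in young wild-type to 159 to 197 in old transgenic muscle, a log2 difference of 1.23 ± 0.07 (SE, limma, adjusted p = 3.62e-15), with no overlap. Pdhb, a subunit of pyruvate dehydrogenase, rose by 1.15. The 2 genes that fell, named after their values were seen, were Pcx (pyruvate carboxylase, -0.93) and Pdk1 (a kinase that inhibits pyruvate dehydrogenase, -0.33). The related kinase Pdk4 was the one gene of the list that did not pass, at -0.04.

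Of 24 genes of fatty acid oxidation, 22 were higher and the other 2 did not pass (median 0.85). Acadm, the medium-chain acyl-CoA dehydrogenase, was at 109 to 142 scaled TPM in young wild-type and 202 to 239 in old transgenic muscle, a log2 difference of 0.79 ± 0.07 (SE, limma, adjusted p = 1.01e-11), and at -0.04 on unscaled TPM. Acadvl, the very-long-chain enzyme, rose by 1.63, although 42.9% of its exon bases are shared with Dvl2 on the opposite strand and the strandedness of the counting is not stated. The genes that did not pass were Ucp3, an uncoupling protein (0.29), and Cpt1a, the liver form of carnitine palmitoyltransferase (0.15, and -0.42 on unscaled TPM). Over the list 5 of 24 genes were higher and 2 lower on unscaled TPM.

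The machinery that makes mitochondrial proteins rose by less. Of 77 mitochondrial ribosomal protein genes 70 were higher and the other 7 did not pass, with a median of 0.65. Mrpl37, a protein of the large subunit, went from 33.1 to 41.2 scaled TPM in young wild-type to 73.3 to 99.9 in old transgenic muscle, a log2 difference of 1.11 ± 0.08 (SE, limma, adjusted p = 3.7e-13). Mrpl41 rose by 1.17. Of 44 mitochondrial translation factors and tRNA enzymes 32 were higher and the other 12 did not pass (median 0.46), among them the elongation factors Tufm (1.14) and Tsfm (1.15). The direction of these 2 lists turns on the scaling: on unscaled TPM 14 mitochondrial ribosomal genes were higher and 31 lower, and 6 translation genes were higher and 25 lower. Among 24 genes of import and protein quality control, 21 were higher and 2, the protease Yme1l1 (-0.33) and the peptidase subunit Pmpca (-0.15, and -0.12 without MCK_SO_82, where it no longer passed), lower, with Afg3l2, an inner membrane protease, at 0.90 and the scaffold Phb at 1.05.

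Lars2, the mitochondrial leucyl-tRNA synthetase, had the largest rise of this group and is uncertain. It was at 32.6 to 149 scaled TPM in young wild-type, 336 to 638 in old transgenic and 2030 to 4368 in old wild-type muscle. The 3 groups did not overlap. The log2 difference of old transgenic from young wild-type muscle was 2.81 ± 0.33 (SE, limma, adjusted p = 1.87e-08), and that of old from young wild-type muscle was 5.67. A stretch of 72 bases in its transcript is 98.6% identical to Gm15564, and the means of the 3 groups follow the same order as their rRNA shares given above. The part of either in this result was not tested.

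Few of the factors that PGC-1α works with changed in the same way. Of 30 coactivators and partner factors tested, 9 were higher and 6 lower (50%, near the 47.4% of all genes), with a median of 0.00. Esrra, the oestrogen-related receptor alpha, was at 33.6 to 47.5 scaled TPM in young wild-type and 82.3 to 116 in old transgenic muscle, a log2 difference of 1.32 ± 0.12 (SE, limma, adjusted p = 2.81e-11), with no overlap. Esrrb, its relative, rose by 1.59 from a median of 1.19 to one of 5.65 scaled TPM, and Sirt3, a mitochondrial deacetylase, by 1.38. The other members are covered by the counts.

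Outside the chain, enzymes of branched-chain amino acid and kynurenine breakdown were mostly higher, 18 of 21 (median 0.73). Acadsb, a short-chain acyl-CoA dehydrogenase, was lower (-0.24, limma, adjusted p = 0.0447), and at -0.14 it no longer passed without MCK_SO_17. Dbt (0.14) and Aldh6a1 (0.02) did not pass, and on unscaled TPM both were lower (-0.58 and -0.79). Got2, the mitochondrial aspartate aminotransferase, which also acts on kynurenine, had 101 to 136 scaled TPM in young wild-type and 375 to 452 in old transgenic libraries, a log2 difference of 1.72 ± 0.11 (SE, limma, adjusted p = 5.18e-14), without overlap. Hibadh, of valine breakdown, rose by 0.99. Of 22 antioxidant enzymes 10 were higher and 1, the extracellular superoxide dismutase Sod3 (-0.39), lower (median 0.21), beside 24.0% of all genes higher and 23.3% lower. The rises were led by the mitochondrial superoxide dismutase Sod2 (1.44) and the peroxiredoxin Prdx6 (1.22). Ckmt2, the mitochondrial creatine kinase of muscle, rose by 1.81 from a median of 777 to one of 2540 scaled TPM, while the creatine transporter Slc6a8 fell by 0.55 on the log2 scale.

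Genes of lipid handling moved in both directions. Of 19 genes of lipid uptake and storage 9 were higher and 3, Plin2, Plin3 and the acyltransferase gene Gpam (-0.38), lower. Over all genes 24.0% were higher and 23.3% lower. Without the scaling the list had 2 higher and 10 lower. Pnpla2, the lipase that opens stored triglyceride, rose by 1.24, the fatty acid transporter Slc27a1 by 0.98 and Plin5, a coat gene of lipid droplets, by 1.19. Plin2, another coat gene, was at 22.2 to 26.9 scaled TPM in young wild-type and 11.4 to 13.9 in old transgenic muscle, a log2 difference of -0.91 ± 0.09 (SE, limma, adjusted p = 7.52e-10). Plin3, also a coat gene, fell by 1.37 and was also low in old wild-type muscle, at 2.07 to 5.83 against 7.21 to 12.9 in young wild-type libraries. Cds1, an enzyme of phospholipid synthesis, had one of the largest rises of all genes, 2.49, from 0.23 to 1.07 scaled TPM in young wild-type to 5.89 to 9.11 in old transgenic muscle.

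**Figure D3:**
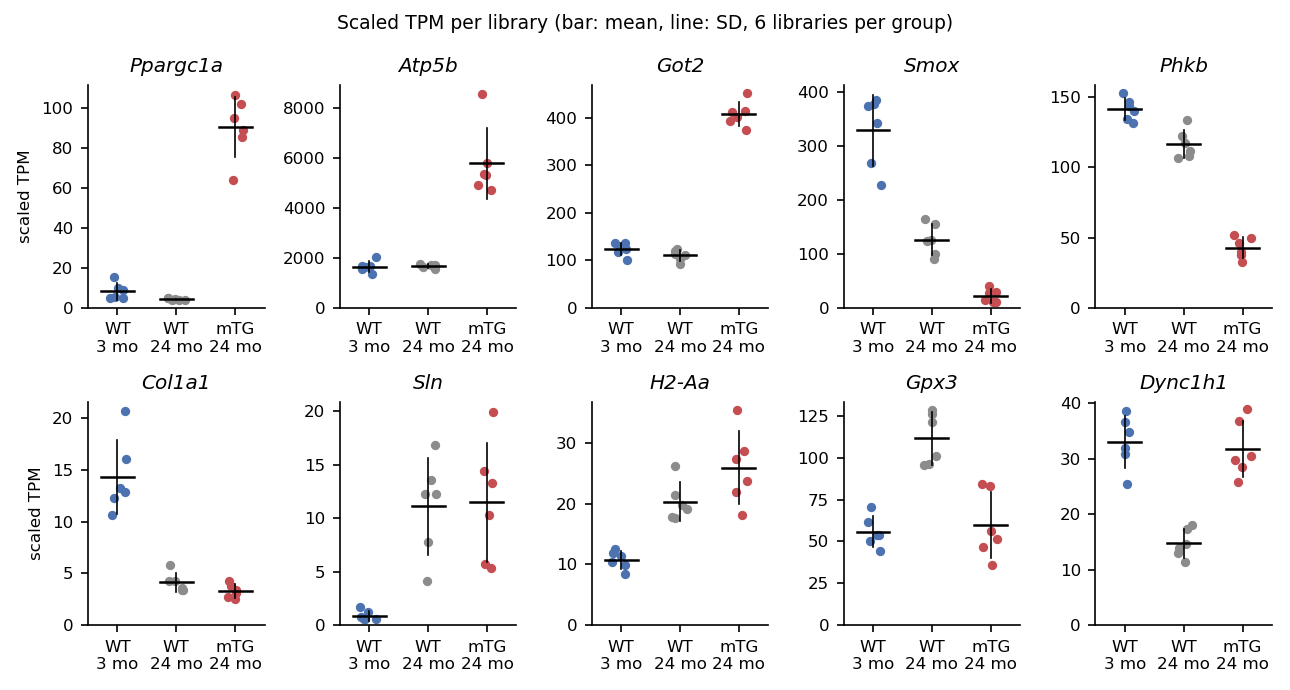
Scaled TPM (y axis, linear, from 0) of 10 genes in each library of young wild-type, old wild-type and old transgenic muscle (x axis, 6 libraries each); points are libraries, horizontal bars are means and vertical lines are SD. Ppargc1a, Atp5b and Got2 are high in old transgenic muscle alone among the 3 groups shown, Smox and Phkb are lowest there, Col1a1, Sln and H2-Aa lie near old wild-type muscle, and Gpx3 and Dync1h1 overlap the young wild-type range.

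Large falls were found in polyamine metabolism, which turns ornithine and S-adenosylmethionine into putrescine, spermidine and spermine. Smox, the spermine oxidase, had the largest fall of the named genes. It was at 227 to 385 scaled TPM (median 358) in young wild-type muscle and at 10 to 41 (median 20.8) in old transgenic muscle, a log2 difference of -4.0 ± 0.25 (SE, limma, adjusted p = 1.54e-14). Old wild-type muscle lay between them at 89.9 to 164, so the 3 groups did not overlap. Amd1, the S-adenosylmethionine decarboxylase, was at 566 to 844 against 44.4 to 129 scaled TPM, a log2 difference of -3.03 ± 0.18 (SE, adjusted p = 6.83e-15), and its transcript is 99.6% identical over 3202 bases to Amd2, so reads may be split between them. Odc1, the ornithine decarboxylase, fell by 2.12 and Sms, the spermine synthase, by 1.45 on the log2 scale. Of 11 genes of the pathway 5 were lower, the fifth being Azin1 (-0.92), which protects ornithine decarboxylase from breakdown. Azin2 (0.74) and the oxidase Paox (0.56, and -0.01 on unscaled TPM) were higher.

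The same genes were low in young transgenic muscle. Against young wild-type muscle, 3-month-old transgenic muscle differed by -3.72 for Smox, -2.43 for Amd1 and -2.13 for Odc1. In ageing wild-type muscle Smox differed by -1.38 and Amd1 by -0.83. Odc1 did not pass there, at -0.27, and Sms was higher by 0.38.

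Falls were also found among genes of fuel use. Prkag3, the regulatory subunit of AMP-activated kinase in fast fibres, was at 42.9 to 77.8 scaled TPM in young wild-type and 8.69 to 18.8 in old transgenic muscle, a log2 difference of -2.14 ± 0.14 (SE, limma, adjusted p = 1.03e-13). Phkb and Phka1, subunits of the phosphorylase kinase that starts glycogen breakdown, fell by 1.72 and 1.2 on the log2 scale, and Gbe1, the glycogen branching enzyme, rose by 1.13. For Phkb the young wild-type libraries lay at 131 to 153 scaled TPM and the old transgenic libraries at 32.3 to 52.1. Of 28 genes of glycolysis and glycogen 13 were lower and 7 higher (median -0.24), beside 23.3% of all genes lower and 24.0% higher. On unscaled TPM 24 were lower, beside 77.4% of all genes.

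Contractile and calcium genes showed no common direction. Of 14 genes of fast fibres 5 were lower and 1 higher, and of 12 genes of slow fibres 3 (Sln, Mb and Casq2, the slow calsequestrin, at 0.90) were higher and 1 (Myoz2, -0.53) lower, counts whose shares (42.9% and 33.3%) are below the 47.4% of all genes. Myl1, the fast alkali light chain, and Casq1, the fast calsequestrin, were both at -0.83. The others that fell were Actn3, the fast actinin (-0.53), Pvalb, parvalbumin (-0.70), and Myh4, the myosin of type IIB fibres (-0.22). Actn3 and Myh4 no longer passed without MCK_SO_82, at -0.40 and -0.17. In contrast, Myh1, the myosin of type IIX fibres, rose by 1.11, and by 0.28 without passing on unscaled TPM. Myh4 and Myh2 also met the rule for held genes given below, with differences of -0.79 and -0.71 in old wild-type muscle. Myh4 was at 7220 to 9000 scaled TPM in young wild-type, 4312 to 4980 in old wild-type and 5842 to 7850 in old transgenic muscle. Mb, the myoglobin gene, rose by 1.2, with 27.6% of its exon bases shared with an antisense transcript. Of 24 calcium handling genes 5 were higher and 7 lower, beside 24.0% of all genes higher and 23.3% lower. Among them Jph2, a junction protein of the triad, was at -1.12. Actc1, an actin of heart and developing muscle, was at 104 to 225 scaled TPM in young wild-type and 15.6 to 24.4 in old transgenic muscle, a log2 difference of -2.95 ± 0.33 (SE, limma, adjusted p = 6.61e-09).

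Mstn, which encodes myostatin, a secreted inhibitor of muscle growth, was at 23.1 to 31.2 scaled TPM in young wild-type and 4.97 to 7.75 in old transgenic libraries, without overlap (log2 difference -1.91 ± 0.09, SE, limma, adjusted p = 5.19e-17). Old wild-type muscle, at 20.8 to 27.5, overlapped the young range. Among secreted factors Il15 rose by 1.94, Fndc5, the precursor of irisin, by 1.38, and Vegfb, a vascular growth factor, by 1.90. Trim63, the ubiquitin ligase of muscle atrophy, fell by 0.74. Other secreted factors fell, among them Igf1 (-1.09) and Fstl1 (-0.95). Of 22 genes of atrophy and protein breakdown 4 were higher and 8 lower, beside 24.0% of all genes higher and 23.3% lower.

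Other large rises and falls, among called nuclear protein-coding genes with a mean of at least 5 scaled TPM in either group and no overlap between the groups, were of mixed kinds. Iqsec2, an exchange factor for small GTPases, rose by 2.34 and Adig, an adipogenin gene, by 2.22, both without overlap. Fyb, an adaptor of blood cells, went from 0.16 to 5.49 to 7.64 to 38 scaled TPM, a wide spread within each group (log2 difference 2.84 ± 0.67, SE, limma, adjusted p = 0.000717). Rangrf rose by 2.08 and Iqcg by 2.28, but 90.7% of the exon bases of Rangrf are shared with Slc25a35 and 48.1% of those of Iqcg with Lrch3, on the opposite strand in both. Among the falls, Slc38a4, an amino acid transporter, went from a median of 44.9 to one of 3.58 scaled TPM (log2 difference -3.26 ± 0.17, SE) and Mettl21c, a methyltransferase of muscle, fell by 3.06. Odf3l2 fell by 2.63 and Htra4, a serine protease with 32.9% of its exon bases shared with an antisense transcript, by 2.19, to at most 0.83 and 0.38 scaled TPM in the 6 old transgenic libraries.

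The same libraries were then read against normal ageing. In wild-type muscle 338 genes (2.73% of those tested) differed between 24 and 3 months with at least a 1.5-fold change and a mean of at least 5 scaled TPM in young wild-type, old wild-type or old transgenic muscle, 207 higher and 131 lower with age. An age-changed gene was called held when old transgenic muscle differed from old wild-type muscle in the opposite direction and lay within 1.5-fold of young wild-type muscle, and not held when old transgenic muscle was called different from young wild-type muscle in the direction of ageing by at least 1.5-fold. Neither class uses the young transgenic libraries. A class therefore does not tell a change with age in transgenic muscle from a difference already present there at 3 months. Between the 2 old groups 47.9% of all genes differed. The comparisons with young muscle use the same young wild-type libraries, so a deviation of those libraries moves both.

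Of the 338 genes, 72 (21.3%) were held and 163 (48.2%) were not held. A further 23 (6.8%) lay past the young level on the other side, a class set up after the values were seen. Protein-coding genes made up 246 of the 338, with 64 held, 109 not held and 19 past. The genes not held also included 10 small nucleolar RNA, 6 rRNA, 4 small nuclear RNA, 2 mitochondrial rRNA and 2 ribozyme genes, and no gene of these types was held. With nuclear protein-coding genes alone, 60 of the 72 were again held and 108 of the 163 again not held. Of the 207 genes higher with age, 36 (17.4%) were held, 104 (50.2%) not held and 13 (6.28%) past, and 56 (27.1%) were in none. Of the 131 lower with age, 36 (27.5%) were held, 59 (45.0%) not held and 10 (7.63%) past, and 26 (19.8%) were in none. The held class rests on the scaling and on the margin: on unscaled TPM 46 other genes were held, and with a narrower margin 10 were. With the rRNA share as a covariate 4 genes counted as age-changed and 1 was held. Without MCK_SO_17, 82 genes were held, 67 of them among the 72.

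**Figure D4:**
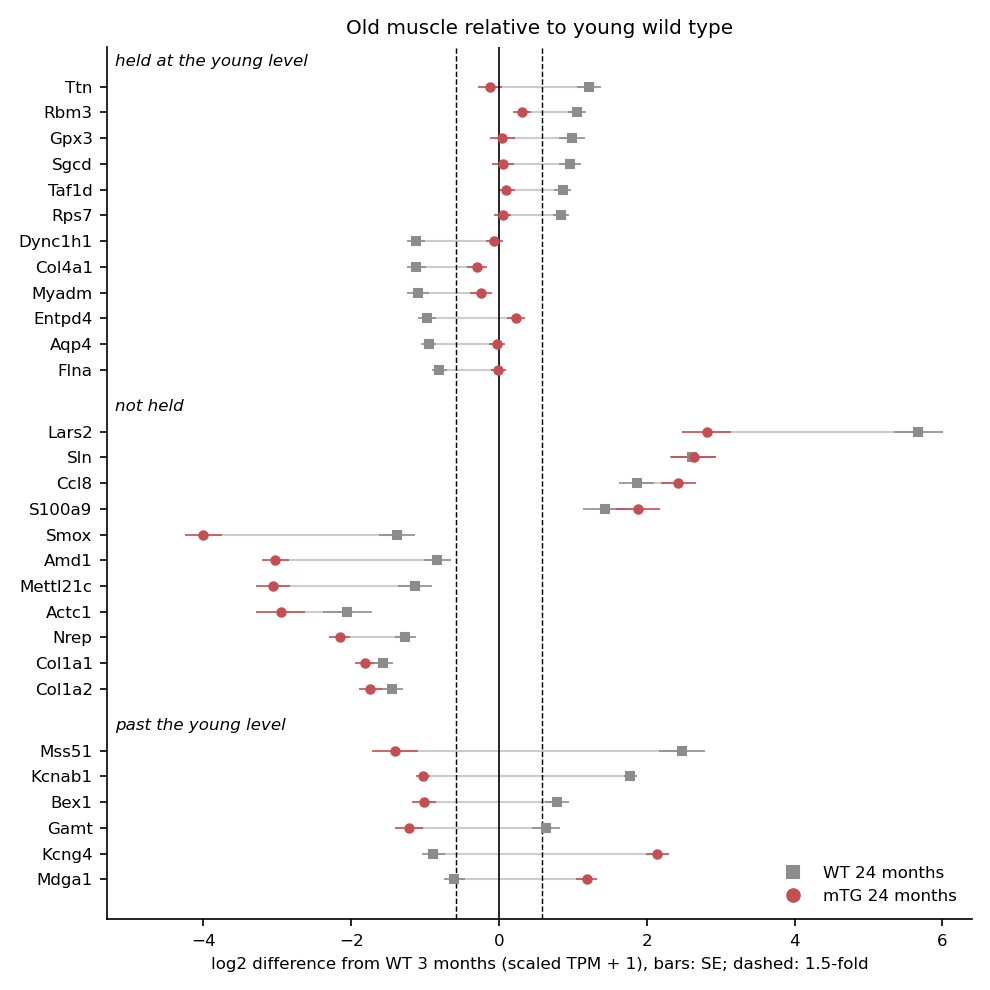
Log2 difference in scaled TPM + 1 from young wild-type muscle (x axis) of old wild-type (grey squares) and old transgenic muscle (red circles) for genes held, not held and past the young level (y axis); horizontal bars are SE and dashed lines mark 1.5-fold. Red circles lie between the dashed lines for held genes, on the side of the squares for genes not held, and on the opposite side for genes past the young level.

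Held genes that fell with age in wild-type muscle included structural and transport proteins. Dync1h1, the heavy chain of the dynein motor, was at 25.4 to 38.6 scaled TPM in young wild-type, 11.4 to 18.1 in old wild-type and 25.8 to 38.9 in old transgenic muscle. The young and the old transgenic ranges were nearly the same, and old wild-type muscle lay below both. Its log2 difference from young wild-type muscle was -0.06 ± 0.12 (SE) in old transgenic and -1.12 in old wild-type muscle (limma, adjusted p = 0.706 and 1.71e-08). Its change with age also differed between the genotypes by limma's interaction term (0.94), a difference found for 3.48% of all genes. The gene was chosen for its place in the held class, so this value is a description. Flna, the actin crosslinker filamin A, was at 20.3 to 24.5, 10.8 to 19.8 and 20.4 to 24.5 in the same order. Col4a1, a basement membrane collagen, lay at 18.1 to 24.4, 7.64 to 10.4 and 12.4 to 24.0, a difference from young wild-type muscle of -0.30 that passed when WT_5, MCK_SO_25, MCK_SO_31 or MCK_SO_82 was left out. Aqp4, the water channel of fast fibres, was at -0.03, Adgrg1, an adhesion receptor, at -0.01 and Myadm at -0.24.

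Held genes that rose with age in wild-type muscle were led by Ttn. The gene of the giant sarcomere protein titin was at 109 to 124 scaled TPM in young wild-type, 165 to 328 in old wild-type and 74.7 to 130.3 in old transgenic muscle, where MCK_SO_17 was the lowest. The lowest old wild-type library was WSO_27, against 293.9 to 328 in the others of its group. WSO_27 also had the lowest rRNA share of old wild-type libraries (5.34%), and a tie between the 2 was not tested. Gpx3, the secreted glutathione peroxidase, was at 44.2 to 70.4, 95.6 to 129 and 36.0 to 84.2. Old wild-type muscle lay above both other groups for each gene. The difference of old transgenic from young wild-type muscle was -0.12 ± 0.17 (SE) for Ttn and 0.05 ± 0.18 (SE) for Gpx3. Sgcd, a sarcoglycan of the muscle membrane, was at 0.05 and Taf1d, a factor of rRNA transcription, at 0.10.

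Some held genes were within the margin and still different, or uncertain. Rbm3, a cold-induced RNA-binding protein, was at 0.31 (limma, adjusted p = 0.0405) and Aldh1a1, a retinaldehyde dehydrogenase, at 0.26 (adjusted p = 0.0202), and both no longer passed without MCK_SO_17 (adjusted p = 0.1912 and 0.0758). Rnpc3 was at -0.29 (adjusted p = 0.0467), with 17% of its exon bases shared with Amy1. Entpd4 was at 0.23, with 26.1% shared, and Pde4a, a cyclic AMP phosphodiesterase, at 0.22. Rps7 was at 0.05, and reads of ribosomal protein genes can be shared with their processed copies. On unscaled TPM the differences of Rbm3, Aldh1a1, Entpd4, Pde4a, Rps7, Gpx3, Sgcd and Taf1d were negative, between -0.77 and -0.50. For Gpx3, Taf1d, Rbm3, Rps7, Aldh1a1, Col4a1, Adgrg1, Myadm and Pde4a limma's interaction term did not pass. A changed response to age in transgenic muscle was thus not shown for these held genes.

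Genes that fell with age in wild-type muscle and were not held included Smox and Amd1, given above, and collagen genes. Smox and Amd1 were already low in young transgenic muscle. From young to old transgenic muscle they differed by -0.28 (limma, adjusted p = 0.456) and -0.60 (adjusted p = 0.0263). Col1a1, a chain of type I collagen, was at 10.6 to 20.7 scaled TPM in young wild-type, 3.4 to 5.85 in old wild-type and 2.53 to 4.28 in old transgenic muscle. The 2 old groups overlapped and both lay below all young wild-type libraries. The log2 difference from young wild-type muscle was -1.82 ± 0.13 (SE, limma, adjusted p = 3.93e-13) in old transgenic and -1.57 in old wild-type muscle, and that between the 2 old groups was -0.25 (adjusted p = 0.115). Col1a2, the partner chain, was at -1.74 and Col6a1, of the microfibrillar collagen, at -0.81 in old transgenic muscle.

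Over 35 matrix genes 26 were lower and 1, the protease inhibitor gene Timp1 (0.56), higher than in young wild-type muscle (median -0.76), against 23.3% of all genes lower. In ageing wild-type muscle 21 were lower and 2, Dcn (0.25) and P4hb (0.36), higher (median -0.60), and in young transgenic against young wild-type muscle 5 were lower and 6 higher (median 0.02). From young to old transgenic muscle 24 of the 35 were lower, beside 7.46% of all genes lower and 6.7% higher. Timp2, a related inhibitor, was at 17.2 to 22.3 scaled TPM in young and 19.5 to 23.4 in old wild-type muscle but at 8.67 to 10.6 in old transgenic muscle.

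Markers of the cells that make matrix moved in the same direction. Of 10 markers of fibro-adipogenic progenitors 7 were lower and the other 3 did not pass (median -0.46), with Cd248 at -0.57 and Dpt at -0.70, and their summed level was 327 to 438 scaled TPM in young wild-type and 264 to 376 in old transgenic libraries. Of 7 tenocyte markers 5 were lower and the other 2 did not pass (median -1.02), among them Tnmd (-1.14) and Fmod (-1.16), with a summed level of 36.3 to 102 against 25.5 to 45.6. In whole muscle fewer cells of a type and less RNA per cell cannot be told apart, and the part of these cells in the matrix result was not tested.

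Nrep, a neuronal regeneration protein, was at 35.8 to 60.0 scaled TPM in young wild-type, 14.1 to 21.6 in old wild-type and 6.64 to 15.1 in old transgenic muscle. The old groups overlapped slightly, and old transgenic muscle had a log2 difference of -2.16 ± 0.14 (SE, limma, adjusted p = 4.55e-14). Srebf1, the regulator of lipid synthesis, fell by 1.98 and Smtnl2 by 1.95 on the log2 scale. Slc38a4, Mettl21c and Actc1, given above, belong to the same class. For Actc1 and Srebf1 the change with age differed between the genotypes by limma's interaction term (1.81 and 1.08).

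Genes that rose with age and were not held included Sln, S100a9 and Ccl8. Sln, sarcolipin, which uncouples the calcium pump of the sarcoplasmic reticulum, was at 0.53 to 1.67 scaled TPM in young wild-type, 4.08 to 16.9 in old wild-type and 5.35 to 19.9 in old transgenic muscle. The log2 difference from young wild-type muscle was 2.64 ± 0.31 (SE, limma, adjusted p = 1.51e-08) in old transgenic and 2.62 in old wild-type muscle, and the 2 old groups differed by 0.02 (adjusted p = 0.971). Young transgenic muscle differed from young wild-type muscle by 0.28 (adjusted p = 0.504). Aarsd1 rose by 2.54 but shares 41.0% of its exon bases with Gm27029 on the same strand. Of 16 genes of the denervation response 8 were higher and 1, the synaptic kinase Musk (-0.67), lower, beside 24.0% of all genes higher and 23.3% lower. The stretch-response gene Ankrd1 was at 1.17, the keratin Krt18 at 1.31 and the growth arrest gene Gadd45a at 1.15. On unscaled TPM Krt18 still passed (0.983), and Ankrd1 (0.515) and Gadd45a (0.355) did not. In old wild-type muscle Musk was higher (0.51), as was Chrnb1 (0.57), which lay within 1.5-fold of young wild-type muscle in old transgenic muscle. Chrnb1 was also higher in old than in young transgenic muscle (0.43, limma, adjusted p = 0.000709). Young transgenic muscle was at -0.63 for Chrnb1 against young wild-type muscle.

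Ccl8, a monocyte chemokine, was at 0.36 to 0.98 scaled TPM in young wild-type, 2.67 to 9.19 in old wild-type and 3.15 to 17.5 in old transgenic muscle, a log2 difference of 2.43 ± 0.24 (SE, limma, adjusted p = 6.1e-10). S100a9, a calcium-binding protein of neutrophils, rose by 1.89 and was listed at 0 in 1 young wild-type library. Its means were 0.69 scaled TPM in young wild-type, 3.86 in old wild-type and 5.29 in old transgenic muscle, so it met the level minimum in the last group alone. Of 21 genes of antigen presentation 20 were higher and 1, Nlrc5, did not pass (median 0.87), against 13 of 21 in ageing wild-type muscle (median 0.45).

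H2-Aa, a class II chain that presents antigen, was at 8.35 to 12.5, 17.7 to 26.3 and 18.2 to 35.4 scaled TPM in young wild-type, old wild-type and old transgenic muscle. Both old groups lay above the young one and overlapped each other. H2-Eb1, another class II chain, rose by 1.22 and B2m, the light chain of class I, by 0.78, although B2m was at -0.05 on unscaled TPM. H2-Q7 and H2-Q6 rose by 1.73 and 1.53, and the 2 transcripts are 94.6% identical over 1030 bases, so their reads may be split. Young transgenic muscle was already higher than young wild-type muscle for 13 of the 21 genes (median 0.53).

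Of 14 markers of macrophages and myeloid cells 10 were higher and the other 4 did not pass (median 0.45), with a summed level of 46.3 to 70.7 scaled TPM in young wild-type and 72.8 to 134 in old transgenic libraries. Tyrobp and C1qa, both of macrophages, rose by 0.70 and 0.58, and on unscaled TPM they were at -0.01 and -0.14. All 6 tested markers of neutrophils and mast cells were higher, among them the mast cell proteases Mcpt4 (0.78) and Tpsb2 (0.76). On unscaled TPM S100a8 and S100a9 still passed, and Mcpt4 (0.18), Tpsb2 (0.22), Cma1 (0.13) and Cpa3 (0.02) did not. The part of these cells in the antigen presentation result was not tested. Of 14 endothelial markers 9 were higher and the other 5 did not pass (median 0.28), with Egfl7 at 0.84 and Plvap at 0.59. On unscaled TPM 11 were lower, beside 77.4% of all genes, and Plvap was at -0.14. In ageing wild-type muscle 10 of these 14 markers were lower (median -0.30).

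A few genes went past the young level. Kcnab1, a subunit of voltage-gated potassium channels, was at 1.72 to 2.54 scaled TPM in young wild-type, 8.48 to 11.4 in old wild-type and 0.41 to 0.72 in old transgenic muscle, with no overlap among the 3 groups. Its log2 difference from young wild-type muscle was -1.03 ± 0.09 (SE, limma, adjusted p = 3.12e-11) in old transgenic and 1.78 in old wild-type muscle. Mss51, a mitochondrial protein of fast muscle, was at 11.9 to 30.2, 54.8 to 219 and 2.97 to 20.3 scaled TPM, and its difference from young wild-type muscle was -1.41 ± 0.31 (SE, adjusted p = 0.000364), with overlap between the young wild-type and the old transgenic group. Gamt, which makes creatine, was at -1.22 in old transgenic and 0.64 in old wild-type muscle. Bex1 was at -1.01 against 0.78, with 18.8% of its exon bases shared with Tceal7.

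In the other direction, Kcng4, another potassium channel subunit, was at 6.80 to 11.2 scaled TPM in young wild-type, 3.07 to 4.96 in old wild-type and 35.4 to 45.3 in old transgenic muscle. The log2 difference of old transgenic from young wild-type muscle was 2.14 ± 0.16 (SE, limma, adjusted p = 6.62e-13). Mdga1 rose by 1.19 and Efcab6 by 0.93, against -0.61 and -0.95 in old wild-type muscle. The young transgenic group lay on the same side of young wild-type muscle for each of these 7 genes. Its differences were -1.17 for Kcnab1, -3.38 for Mss51, -1.54 for Gamt and -1.89 for Bex1, and 2.36 for Kcng4, 1.93 for Mdga1 and 1.13 for Efcab6.

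The count for the cytosolic ribosome depended on 1 library. Of 74 genes 24 were higher and 1 lower in old transgenic than in young wild-type muscle (median 0.26), and without MCK_SO_17 13 were higher and 5 lower (median 0.11). In ageing wild-type muscle 48 were higher (median 0.46). Rpl38, of the large subunit, was at 180.1 to 244 scaled TPM in young wild-type and 311 to 666 in old transgenic muscle, a log2 difference of 0.92 ± 0.16 (SE, limma, adjusted p = 1.6e-05). On unscaled TPM 64 of the 74 genes were lower, beside 77.4% of all genes.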

How the data were processed

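Bulk RNA sequencing of gastrocnemius muscle was deposited as 1 table of 54416 gene IDs in 35 libraries. The values are TPM made by the authors with cutadapt 1.16 and Salmon 1.1.0 for GRCm38, and edgeR is also named, per the submitters' processing notes. Column totals were 999999.5 to 1000000.3, so depth is unknown and gives no counting intervals. Of the IDs, 54163 were named from GENCODE M21.

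The 12399 genes that reached 1 TPM in 5 or more columns were scaled by median-of-ratios size factors, set to log2(scaled TPM + 1) and fitted with limma 3.58.1 in R 4.3.3 over all 6 groups, so that they share 1 estimate of the spread. P-values were adjusted by Benjamini-Hochberg over all tested genes. Likeness used 2 one-sided tests at a 1.5-fold margin (a narrower one of 1.25-fold as an alternative) and a mean of at least 5 scaled TPM. Single values used exact 2-sided permutation tests (scipy 1.17.1). Near copies were aligned with blastn 2.17.0. On simulated data the fit called 36% of genes changed 1.25-fold, 90% at 1.5-fold, 92% at 2-fold and 100% at 4-fold (50 genes each), and it placed 95.2% of unchanged genes within the margin. The simulated noise was independent and drawn on the log2 scale after scaling, so the scaling step was not tested. Only these genes were changed, all at 5 or more scaled TPM and evenly up and down, while 47.4% of genes were called in the data.

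Named genes were Ppargc1a, the 12 largest rises and 12 largest falls among called nuclear protein-coding genes with a mean of at least 5 scaled TPM in either group and no overlap, up to 8 held and not held genes in each direction of ageing, and up to 4 genes per list with the smallest adjusted p. Genes named outside this rule were chosen after their values were seen. The members and lists were chosen with earlier results of these data known. Alternatives were other scalings, filters, pseudocounts, margins, covariates and weights, and leaving out each library. Some items are not reported here.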

Additional observations from a re-analysis of the deposited data

Results flagged for a closer look

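A library that stood far from the other 5 of its group was found in 24 of 326 groups tested for the named genes, where chance gives about 1 in 20. MCK_SO_17 accounted for 14 of them. It was the highest old transgenic library for Iqcg (29.7 scaled TPM), Rbm3 (99.2), Atp5l (2719), Ndufs8 (682), Ndufa11 (985), Cox6c (3905), Atp5b (8585), Atp5k (2032), Acadvl (615) and Phb (202), and the lowest for Pde4a (9.38), Ttn (74.7), Esrrb (3.95) and Musk (0.78). Among the other old transgenic libraries, MCK_SO_31 was high for Slc6a8 (26.6), MCK_SO_59 was high for Gadd45a (41.2) and MCK_SO_25 was low for Nlrc5 (0.51). Among young wild-type libraries, WT_2 was high for Cds1 (1.07), WT_3 was high for Odc1 (138) and low for Entpd4 (48.2), WT_4 was high for Atp5l (692.0), WT_5 was high for Krt18 (0.47) and Ndufb4 (41.8), and WT_6 was low for Pdk4 (67.0).

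The age effect differed between transgenic and wild-type muscle for 17 named genes by limma's interaction term. Many of them were named for how old transgenic and old wild-type muscle differ from young muscle, so this number is a description. The value given is the log2 change with age in transgenic minus that in wild-type muscle. It was negative for Lars2 (-2.87), Kcnab1 (-1.63), Sgcd (-0.90), Ttn (-0.85), Rnpc3 (-0.81), Mcpt4 (-0.81), Cds1 (-0.55) and Timp2 (-0.47). It was positive for Actc1 (1.81), Entpd4 (1.31), Srebf1 (1.08), Plin3 (1.04), Dync1h1 (0.94), Myh4 (0.85), Aqp4 (0.79), Flna (0.65) and Phkb (0.47).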

How the results depend on the processing

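The count of genes higher than young wild-type muscle ranged from 2752 to 2995 when single libraries were left out, that of genes lower from 2664 to 2859, that of genes within 1.5-fold from 3621 to 4020, that of held genes from 61 to 83 and that of genes not held from 151 to 189. Over the same fits the difference of Ppargc1a was 3.30 to 3.60, that of the mtDNA share 11.6 to 14.5 percentage points and that of the rRNA share 1.32 to 1.71. On unscaled TPM 497 genes were higher, 9599 lower, 814 within 1.5-fold, 46 held and 620 not held. A mean of at least 5 TPM, which tests fewer genes, gave 1891 higher and 1678 lower, and a required change of 1.5-fold (limma treat) 526 and 191. The narrower margin left 1063 genes within it and 10 held. With the rRNA share as a covariate 1 gene was held and 2 were not, the cause of which was not tested. That share was 0.155 to 0.479% in young and 5.34 to 12.6% in old wild-type libraries, so this fit can hardly tell it apart from wild-type age. The other alternatives kept these 5 counts within 1.5 times.

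Unscaled TPM values are relative to the total and not to the median gene. Of 160 named genes 18 changed sign on unscaled TPM and were called in at least 1 of the 2 fits: Aldh6a1 (-0.79), Gpx3 (-0.77), Rps7 (-0.77), P4hb (-0.71), Taf1d (-0.65), Sgcd (-0.59), Entpd4 (-0.59), Dbt (-0.58), Aldh1a1 (-0.56), Pde4a (-0.55), Rbm3 (-0.50), Cpt1a (-0.42), C1qa (-0.14), Plvap (-0.14), B2m (-0.047), Acadm (-0.035), Paox (-0.013) and Tyrobp (-0.007). Sign changes called in neither fit, such as that of Atp5g2 (0.05 to -0.76), are not among the 18. A further 13 named genes kept their sign on unscaled TPM but were no longer called, and 7 others were called only there. Leaving out single libraries ended the call of Acadsb, Actn3, Aldh1a1, Myh4, Pmpca, Rbm3 and Rnpc3. No paired analysis was possible because the columns of the 2 groups share no replicate numbers. Precision is limited by 6 libraries per group and by TPM, which hold no depth.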

Other observations

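Circadian genes were split between old transgenic and young wild-type muscle. Of 18 tested, 6 were lower and 3 higher, a share of 50% beside 47.4% of all genes. Arntl, the core activator of the clock, was at -0.76 and the nuclear receptor gene Rora at -0.69 (limma, adjusted p under 0.05 for each). The time of day of sampling is not used here.

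All 5 tested markers of red blood cells were higher (median 1.12), and 3 of them on unscaled TPM. The alpha globin gene Hba-a1 was at 1.29, with reads that can be split with its copy Hba-a2 (1.35), and Alas2, the haem synthesis enzyme of red cells, was at 0.87. The summed level of the list was 341 to 513 scaled TPM in young wild-type, 457 to 986 in old wild-type and 767 to 1669 in old transgenic muscle. Of the T, B and NK cell markers 3 were tested, and the immunoglobulin genes Igkc (3.23) and Ighm (-1.24) moved in opposite directions. Of 24 interferon response genes 13 were higher and 1, Gbp7 (-0.53), lower, beside 24.0% of all genes higher and 23.3% lower.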
